A study of Capra hircus with 2 samples.

Results

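A set of miRNA names first given in cattle was followed in goat testicular cells: entries whose representative name is a cattle name in the runs miR-2286 to miR-2487, miR-6119 to miR-6123 and miR-6516 to miR-6536. The large miR-2284 and miR-2285 group was left out. Reads were summed per name and arm, where the arm is the 5p or 3p side of the hairpin, which gave 123 names of the 1808 named in all, from 102 hairpin names. The small RNA came from 3 testes of 3 Saanen dairy goats, 5 months old. Cells were freed with digestive enzymes and plated overnight, and those that stayed unattached were sorted magnetically. One group was CD49f-positive and the other CD49f-negative; breed, age, digestion and plating were the same for both. Each group had 1 library, and whether it pooled the goats is not stated, so spread between replicates is unknown and p-values are not given. The libraries are called positive and negative here.

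A miRNA is cut from a folded precursor, the hairpin, and its 5′ end fixes the seed, the bases by which it pairs with target messenger RNAs. A shift of the 5′ end by a single base therefore changes the seed. CD49f is the integrin alpha-6 chain, used to enrich spermatogonial stem cells. For most of the cattle-numbered miRNAs no function can be given here with confidence, and they are described by sequence, placement and level.

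The sequences below are the most copied of those that the deposited lists give for a name, beside the mature cattle sequence in the same lists. They run 5′ to 3′ with the seed, bases 2 to 8, in capitals. The first set is shown because goat and cattle share the 5′ end and the seed: miR-6119-5p, miR-2483-3p and miR-2332-3p appeared with the exact cattle sequence, and miR-6123-5p ran on at its 3′ end.
miR-6119-5p, goat, CD49f-positive, and cattle: aGAGGTAAaaaattgatttgact
miR-2483-3p, goat, both libraries, and cattle: aAACATCTggttggttgagaga
miR-2332-3p, goat, both libraries, and cattle: cGGTTTAAggtcttggagacaaag
miR-6123-5p, goat, both libraries: tGCCAAGCccacgttcaaaggct
miR-6123-5p, cattle: tGCCAAGCccacgttcaaagg

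The next set is shown because the listed goat sequence differs from cattle in a base, in its 5′ end or in both, and so carries another seed. Positions are counted from 1 at the 5′ end of the cattle mature sequence. miR-2440-3p carries G2T, miR-2484-3p carries A6G and miR-2411-3p carries C25T. The miR-2484-3p hairpin was not placed on the goat genome and 0 of its reads were without mismatch, so A6G is not shown to be a goat base. miR-2424-3p begins 7 bases further in, in a listed sequence of 16 bases with 4 positive and 3 negative copies.
miR-2440-3p, goat, CD49f-positive: gTTCAGTGatgagaccc
miR-2440-3p, goat, CD49f-negative: tTCAGTGAtgagaccc
miR-2440-3p, cattle: tGCAGTGAtgagaccctgga
miR-2411-3p, goat, CD49f-positive: cTGAACTGtcttactcccacatct
miR-2411-3p, goat, CD49f-negative: tGAACTGTcttactcccacatct
miR-2411-3p, cattle: gCTGAACTgtcttactcccacatcc
miR-2484-3p, goat, both libraries: gAGCTGTGatgactt
miR-2484-3p, cattle: gAGCTATGatgactttgattgcat
miR-2424-3p, goat, both libraries: tGGTAATCtgatggct
miR-2424-3p, cattle: aGATCTTTggtaatctgatggct

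The last set is shown because 1 name, miR-2478, held more reads than any other and its goat sequence also resembles a miRNA outside the set, miR-3968-3p. That miRNA differs from the listed miR-2478-3p by a single base and shares its seed.
miR-2478-3p, goat, both libraries: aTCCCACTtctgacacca
miR-2478-3p, cattle: gTATCCCActtctgacacca
miR-3968-3p, goat: aTCCCACTcctgacacca

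The positive list held 8196507 reads with a miRNA name and the negative list 3064462, a depth ratio of 2.67. These totals cover reads matched to miRNAs only. miR-34c-5p, abundant in meiotic and later male germ cells, made up 2.13% of the CD49f-positive reads and 10.9% of the CD49f-negative reads. Endothelial miR-126-3p made up 1.32% and 0.695%, and of the smooth muscle pair miR-143-3p made up 22.1% and 18.4% and miR-145-5p 0.123% and 0.289%. Of miRNAs typical of pluripotent cells, miR-302a-3p and miR-371-5p had 0 reads in both libraries, and miR-302b-3p had 2 and 0. CD49f, a protein, is not measured here. The part of cell type in the ratios below was not tested, and in such bulk samples fewer cells of a type and less RNA per cell cannot be told apart.

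Most of the cattle-numbered names rested on very few reads. In the positive library 89 of the 123 names were found and in the negative library 78, against 1455 and 1291 of all 1808 names. Names seen in a single library thus also occur outside the set. Of the 123, 44 were in both libraries, 45 only in the CD49f-positive and 34 only in the negative library. Of the names seen in a single library, 4 of the 45 and 2 of the 34 had at least 3 reads, and the most were 12.5 and 5.5. A count of 0 is given a floor of 3 reads here, so for the others an absence from either library was not detectable at this depth. Reaching the floor did not by itself show an absence. For miR-2474-5p and miR-6529-3p, each with 5 positive reads, and miR-2307-3p, with 4, the counting interval of the ratio included no change. The listed miR-2307-3p sequence is also that of miR-2307-5p, which had reads in both libraries. For miR-2478-5p, miR-2319b-3p and miR-6527-3p the interval excluded no change, but none is read as an absence. The listed miR-2478-5p sequence lies on the same cattle mature sequence as miR-2478-3p, which both libraries held. For miR-2319b-3p the listed sequence had 15 bases and 1 mismatch, and 0.5 of its 5.5 reads were without mismatch. The log2 interval of miR-6527-3p ended at -0.14. TMM scaling, used below, moves every log2 ratio up by 0.45, and this interval then includes no change. The median name had 2 reads over both libraries, close to the 2.5 of all other names. Over both libraries, 61 names had at most 1 read and 107 had under 20. Only 16 reached 20 reads and 5 reached 100.

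Those 5 held most of the signal. miR-2478-3p and miR-6119-5p together held 59.9% of the set's reads, and with miR-2411-3p, miR-2440-3p and miR-6123-5p the share was 80.4%. The 107 names under 20 reads made up 6.36%. The whole set summed to 2863.5 reads in the positive library, 0.0349% of named reads (95% Clopper-Pearson interval 0.0337 to 0.0362), and to 1554.1 reads in the negative library, 0.0507% (0.0482 to 0.0533). The log2 ratio of these shares, positive over negative, was -0.54 (-0.63 to -0.45). It was -0.093 with TMM scaling and 0.062 with median-of-ratios scaling, so its direction rests on the scaling. Reads are not always whole because a read that fits several entries was split between them. Here and below intervals cover counting error only, since each group had 1 library. Reads were amplified by PCR without molecular identifiers, so they may not be independent and the intervals may be too narrow even for that. Levels of single names are given as RPM, their reads scaled to a total of 1000000 named reads.

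**Figure D1:**
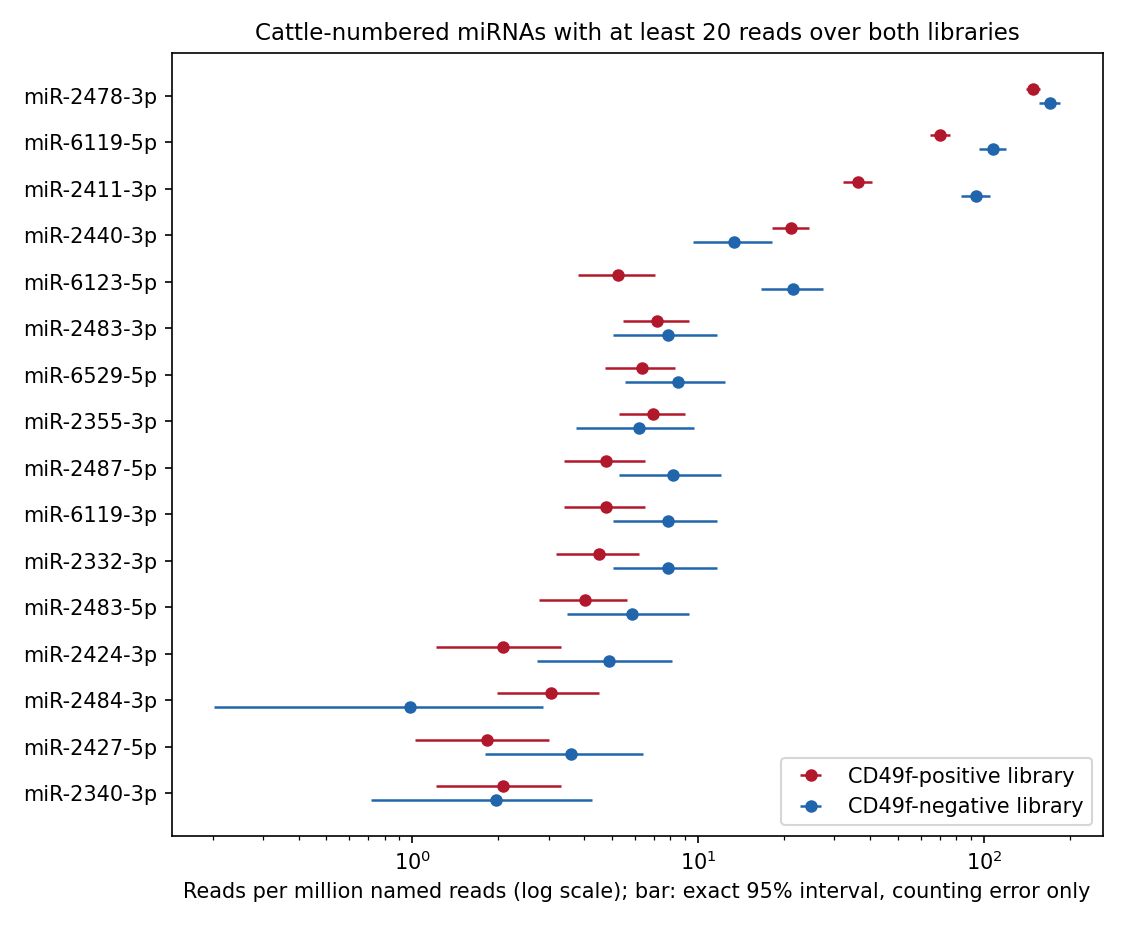
Levels of the 16 cattle-numbered miRNAs with at least 20 reads over both libraries, as RPM on a log axis, with exact 95% intervals that cover counting error only. miR-2478-3p stands highest in both libraries, at 149 and 170 RPM. The intervals of miR-6119-5p, miR-2411-3p and miR-6123-5p do not overlap between the libraries, each with the larger RPM in the negative one. Of all 485 names with at least 20 reads, 78.6% had the larger share in that library too. How many of the 485 had intervals that do not overlap was not counted, so these names are not set apart from them. With TMM scaling the log2 ratio of miR-6119-5p, -0.17 (-0.36 to 0.03), was within counting error.

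The deposited lists sort entries by how they met the goat genome. In group 1 the known hairpin was itself placed on the genome. In group 2 the hairpin was not placed but the read was. In group 3 the hairpin was not placed, and nearly all of the set's reads there were not placed either. Of the 123 names, 56 had reads in group 1, 13 reached group 2 at best and 54 were in group 3 alone. In the positive library 41 of the set's 89 names had group 1 reads, against 561 of 1368 other names. In the negative library these were 40 of 78 and 545 of 1216. Counted by name, the set was thus not placed less often than other miRNAs, though with fewer copies. In group 1 the listed sequence had 1 copy in 56.8% of the set's entries, against 21.6% of other named entries. It had a mismatch in 40.7% against 27.1%. All of the set's group 1 entries carry cattle names, as the choice of members requires.

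By reads, group 1 held 42.0% of the set in the positive library (40.2 to 43.9) and 45.4% in the negative library (42.9 to 47.9). Among all other named reads the shares were 99.0% and 98.5%. Group 2 took 38.4% and 32.8% of the set, and group 3 took 19.6% and 21.9%. Most of what lay outside group 1 belonged to 2 names. Without miR-2478 the group 1 share was 73.8% and 68.2%, and without miR-2478 and miR-2411 it was 87.0% and 87.1%. The miR-2284 and miR-2285 reads, the other cattle-numbered group, lay in group 1 for 48.1% and 36.3%.

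**Figure D2:**
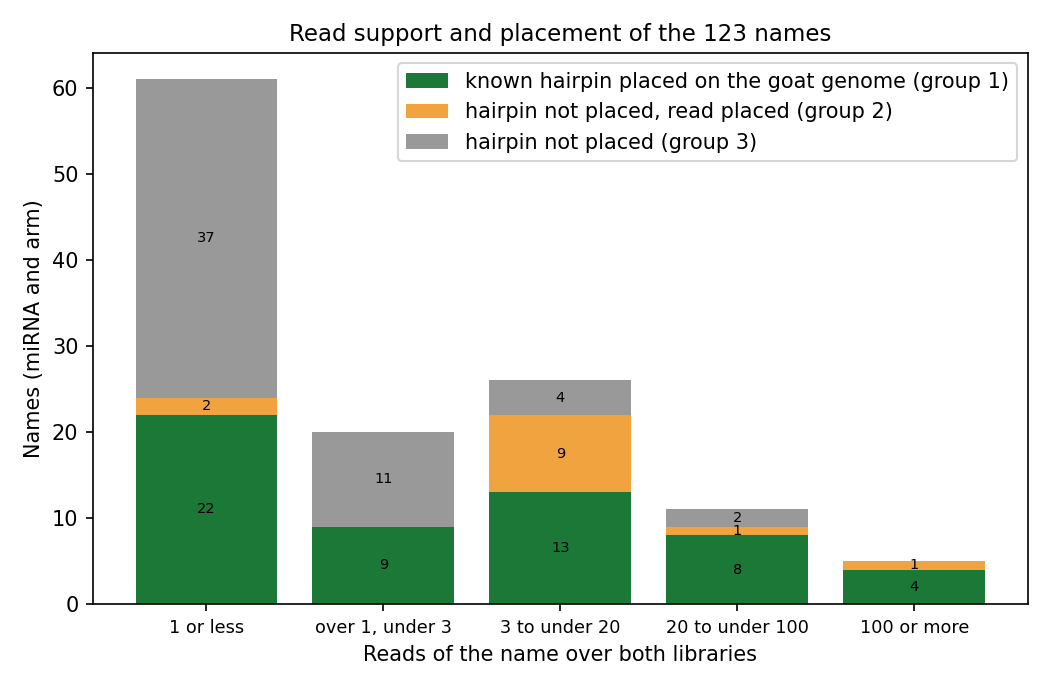
Number of names by reads over both libraries, divided by the best group of the name. Of the 61 names with at most 1 read, 37 had group 3 entries only, while of the 16 names with at least 20 reads 12 had a hairpin placed on the goat genome.

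The group also went with the kind of sequence listed. Each entry lists the read with the highest mapping score, and the set had 81 entries in group 1, 44 in group 2 and 80 in group 3 over both libraries. In group 1 the median listed length was 21 bases and 40.7% of the listed sequences had a mismatch to the sequence they were matched to. In group 2 the median was 19 bases and 25% had one. In group 3 the median was 15 bases, 95% had a mismatch and 85.0% rested on 1 copy. Short listed sequences, of at most 16 bases, made up 76.3% of group 3 entries and 30.9% of group 1 entries. Other named miRNAs had like figures in group 3, where 91.0% of listed sequences had a mismatch and 65.4% were that short, while in their group 1 entries 7.0% were. Of the 61 names with at most 1 read, 49 were listed with a mismatch and 45 with at most 16 bases.

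Mismatches were also counted by reads. Of the reads of the set, 83.1% had no mismatch in the positive library (81.7 to 84.5) and 73.7% in the negative library (71.4 to 75.9). For all other named reads the shares were 67.3% and 64.0%. Members ranged widely. Every read of miR-2440-3p was without mismatch, 173 in the positive library against 41 in the negative. miR-2411-3p had 96.6% and 89.2% such reads and miR-6119-5p 83.9% and 77.2%. At the other end, miR-2484-3p and miR-2386-5p had 0 reads without mismatch in either library, and miR-2427-5p had 1 and 0. Placement and mismatches thus did not always go together: miR-2427-5p lay in group 1 although its listed sequence carries C10T, counted from the 5′ end of the cattle hairpin.

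miR-2478-3p had the most reads of the set and none in group 1. It had 1219.5 reads in the positive library against 520 in the negative one, or 149 (141 to 157) and 170 (155 to 185) RPM. Its log2 ratio, positive over negative, was -0.19 (-0.34 to -0.04). The libraries lie close together, and the sign turned to 0.25 with TMM scaling.

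Reads of miR-2478 shared a 3′ end. The letters CCA closed the listed sequence for 87.3% of its reads in the positive library against 91.1% in the negative one, both arm labels together. For other named miRNAs outside the set this held for 0.0685% and 0.110% of reads. CCA is the ending that cells add to mature transfer RNAs. Whether the reads come from a transfer RNA was not tested. The most copied sequence, of 18 bases, had 591 copies in the positive library against 184 in the negative. A form of 15 bases that starts further in had 203 and 116 copies and was not placed on the genome. Placed entries lay at 12 places in the positive list and 11 in the negative list, of which 5 were the same.

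Outside 3 positive entries, the name miR-2478 carries no arm in the lists, and the side they give it differed between the files. The 18-base sequence, with 615.5 and 185.5 reads, was labelled 5′ in the positive list and 3′ in the negative one. The values above therefore pool reads of both labels as 1 arm: 640 of the 1219.5 positive reads and 13.5 of the 520 negative reads had been labelled 5′. By the deposited side, miR-2478-3p would have 579.5 and 506.5 reads, at a log2 ratio of -1.23 (-1.40 to -1.05), past the 2-fold size defined below. The 5p side would have 652.5 and 13.5, at a log2 ratio of 4.12 (3.36 to 5.00). As the same sequence stands on both sides, neither of these ratios is used as a difference between the cells. The lists give the 5p arm by name only in the positive library, in 3 entries with 12.5 reads. The most copied of these sequences is that of miR-3968-3p with 1 further base, and miR-3968-3p itself had 787 and 351 reads.

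miR-6119-5p was the most abundant member with a placed hairpin. It lies at chrX:23686570-23686646 on the minus strand, in coordinates of the deposited files, whose genome build is not given in the sources used here. The goat hairpin is the same as the cattle one over all 77 bases. It is printed with the listed arms in capitals because both arms were read.
miR-6119 hairpin, goat: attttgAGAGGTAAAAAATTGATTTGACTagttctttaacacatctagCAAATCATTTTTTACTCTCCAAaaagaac

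The 5p arm had 576 reads in the positive library against 329 in the negative, 70.3 (64.7 to 76.3) and 107 (96.1 to 120) RPM. The log2 ratio was -0.61 (-0.81 to -0.41), under the 2-fold size asked of a call. The 3p arm had 39 and 24 reads, which put its log2 ratio at -0.73 (-1.49 to 0.08). Its listed sequence started 1 base after the cattle mature and ended with A23T, which is a mismatch to the goat hairpin as well. The 3p arm did not differ beyond counting error. For the 5p arm TMM scaling gave -0.17 (-0.36 to 0.03) and median-of-ratios scaling -0.013 (-0.21 to 0.19), so with these scalings its difference was within counting error.

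miR-2483 is the other X-linked hairpin, at chrX:32963455-32963534 on the minus strand, and differed from cattle at 1 of 80 bases. Its 3p arm had 59 and 24 reads, log2 ratio -0.14 (-0.83 to 0.63). Its 5p arm had 33 and 18, a log2 ratio of -0.56 (-1.42 to 0.37). Neither arm differed beyond counting error. The listed 5p sequence was that of cattle as well.
miR-2483 hairpin, goat, listed arms in capitals: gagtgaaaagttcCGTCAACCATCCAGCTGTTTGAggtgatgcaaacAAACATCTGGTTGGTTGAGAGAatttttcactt

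To compare the libraries, a miRNA was called lower or higher in the positive library where it had at least 100 reads over both, a ratio of shares of at least 2-fold and a 95% interval that excludes 1. Of the 5 members with enough reads, 2 were called lower and 0 higher. Among all 298 miRNAs with enough reads, 24.8% were called lower and 2.01% higher. With TMM scaling, which moves every ratio up, 1 member was called lower and 1 higher, against 13.4% and 9.06% of the 298. With 5 members the count does not set them apart from that background. The median log2 ratio of the 5 was -0.61, and of all 298 it was -0.43. Among names with at least 20 reads the medians were -0.59 for the 16 members and -0.59 for all 485, and 12 of the 16 had a ratio under 1, as had 78.6% of the 485.

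miR-2411-3p was called lower. It had 297 reads in the positive library against 287 in the shallower negative one, 36.2 (32.2 to 40.6) and 93.7 (83.1 to 105) RPM. The log2 ratio was -1.37 (-1.61 to -1.13), a share 2.58-fold larger in the negative library. With TMM scaling it was -0.93 and no longer met the 2-fold rule. The 5p arm, named after its values were seen, had 6 and 8 reads.

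Nearly all reads of miR-2411-3p were divided between entries at 1 place. At the known hairpin, chr3:15319012-15319086 on the minus strand, 42 and 53 of its reads were counted. A wider entry that encloses this hairpin on the same strand held 255 and 231 more and was filed in group 2, and the last 3 negative reads were in group 3 without a place. The cattle hairpin and the goat genome differ there by C75T, counted from the 5′ end of the cattle hairpin, and the placed goat hairpin stops short of that base. The same difference is C25T in the mature sequence, and the most abundant listed goat sequence carries it. The goat stretch is taken from the wider entry, with the differing base in capitals.
miR-2411 hairpin, cattle: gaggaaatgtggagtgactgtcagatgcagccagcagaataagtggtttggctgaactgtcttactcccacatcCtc
miR-2411 stretch, goat: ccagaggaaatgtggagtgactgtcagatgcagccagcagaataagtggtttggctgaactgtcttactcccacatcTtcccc

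Counting such enclosing entries with the hairpin brought the group 1 share of the set to 51.1% in the positive library against 60.2% in the negative. Besides miR-2411-3p this moved 3 reads of miR-6525-5p. This way of counting was chosen after the values were seen.

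miR-6123-5p was the other member called lower. It had 43 reads in the positive library against 66 in the negative, 5.25 (3.8 to 7.07) and 21.5 (16.7 to 27.4) RPM. The log2 ratio was -2.03 (-2.63 to -1.46), a share 4.09-fold larger in the negative library. Of its reads, 33 and 43 had no mismatch; those alone add up to fewer than the 100 reads the rule asks for. The hairpin lies at chr13:55533508-55533589 on the plus strand and differs from cattle at 1 of 82 bases. Only the 5p arm was listed.
miR-6123 hairpin, goat, listed arm in capitals: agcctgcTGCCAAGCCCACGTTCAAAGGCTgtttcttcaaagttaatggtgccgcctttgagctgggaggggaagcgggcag

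On the same strand 176 bases away lies miR-296, a miRNA of the imprinted GNAS region in mammals. miR-296-3p had 26 and 24 reads, log2 ratio -1.31 (-2.16 to -0.44), and miR-296-5p had 1 and 3. miR-6123-5p and miR-296-3p were both at a larger share in the negative library, with too few miR-296 reads for a call. So were 78.6% of all 485 names with at least 20 reads, and the shared direction does not set this pair apart. Only 1 further member hairpin lay within 10000 bases of a listed hairpin of another family: miR-6528, 1117 bases from miR-129-2. miR-2319a and miR-2319b overlap on opposite strands of chromosome 15.

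miR-2440-3p ran the other way without meeting the rule. It had 173 reads in the positive library against 41 in the negative, 21.1 (18.1 to 24.5) and 13.4 (9.60 to 18.2) RPM, and a log2 ratio of 0.64 (0.16 to 1.19). TMM scaling brought it past 2-fold, to 1.09. The goat hairpin, at chr5:101898282-101898344 on the minus strand, was 93.9% identical to cattle and had a folding energy index of 0.4, the lowest among the placed hairpins of the members with at least 20 reads; the index is the free energy of the fold scaled by length and GC content. The listed forms of 17 and 16 bases are shorter than a usual miRNA, and their first base differed between the libraries, so the libraries differed in the listed seed.
miR-2440 hairpin, goat, listed arm in capitals: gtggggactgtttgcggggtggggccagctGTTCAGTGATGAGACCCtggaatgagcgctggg

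**Figure D3:**
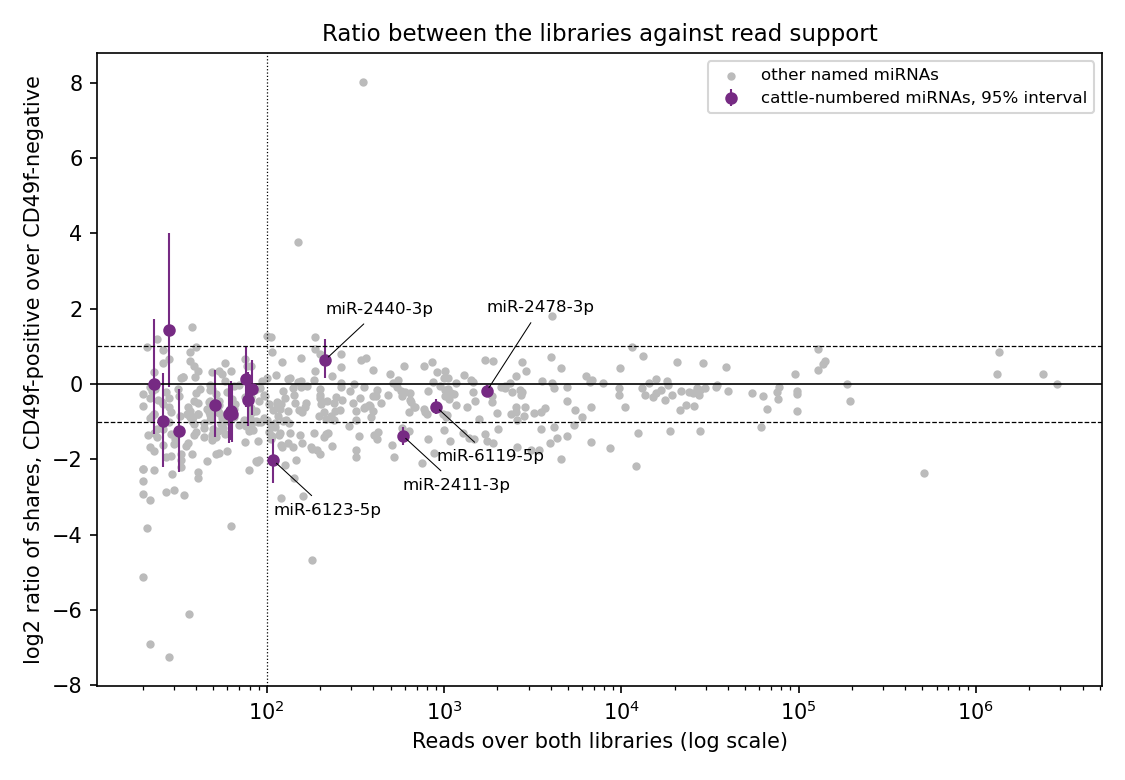
log2 ratio of shares, CD49f-positive over CD49f-negative, against reads over both libraries on a log axis, for all names with at least 20 reads; bars on cattle-numbered miRNAs are 95% counting intervals, dashed lines mark 2-fold and the dotted line 100 reads. The members lie within the cloud of other miRNAs, and miR-2411-3p at -1.37 and miR-6123-5p at -2.03 are the 2 labelled points below the lower dashed line.

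The remaining members with at least 20 reads had counting intervals too wide for a ranking. miR-2332-3p, whose goat hairpin was 90.5% identical to cattle, had 37 and 24 reads, which put its log2 ratio at -0.81 (-1.57 to 0.01). miR-2355-3p had 57 and 19 reads, which put its log2 ratio at 0.14 (-0.61 to 0.998). miR-2487-5p, a group 2 name listed with C15T and a start 4 bases inside the cattle mature, had 39 and 25 reads, which put its log2 ratio at -0.79 (-1.54 to 0.01). For these 3 the libraries did not differ beyond counting error. miR-2424-3p had 17 and 15 reads, log2 ratio -1.24 (-2.33 to -0.13), and would be called lower with a minimum of 20 reads. Its log2 ratio was -0.80 (-1.88 to 0.31) with TMM scaling and -0.64 (-1.73 to 0.47) with median-of-ratios scaling, both within counting error. The share of all 485 names called lower at that minimum was not counted. miR-2427-5p had 15 and 11 reads and miR-2340-3p had 17 and 6, with intervals that include no change.

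Among the names without a placed hairpin and with a mismatch in their main sequence, ratios pointed in both directions. miR-2484-3p had 25 reads in the positive library against 3 in the negative, a log2 ratio of 1.45 (-0.07 to 4.01). miR-2386-5p had 5 and 14 reads, log2 ratio -2.82 (-4.73 to -1.35), and a listed sequence of 15 bases with 1 mismatch. Neither had enough reads for a call, and neither had a read without mismatch, so their names rest on matches that are not exact.

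Across the 16 members with at least 20 reads, 8 listed the 5′ end of the cattle mature in both libraries and 7 listed the cattle seed: miR-2332-3p, miR-2355-3p, miR-2483-3p, miR-2483-5p, miR-6119-5p, miR-6123-5p and miR-6529-5p. All 7 lay in group 1. The listed sequence was the same in both libraries for 11 of the 16, but for 16 of all 44 names found in both. In 5 of the 16 the exact cattle mature was the listed sequence in at least 1 library; a listed sequence need not hold most of the reads, and for miR-6119-5p it had 193 copies against 576 reads.

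The 47 member hairpins placed in group 1 had a median identity to cattle of 97.3%, with a range from 90.5% to 100%. Identity counts the aligned stretch only. Of the 47, 5 matched the cattle hairpin without a difference over its whole length (10.6%), against 45.8% of 330 other pairings of a place with a cattle hairpin; 4 more, miR-2411 among them, matched over a part of it. Their median GC content was 52.0%, against 48.4%, and their median folding energy index was 0.7, against 0.8. The miR-2284 and miR-2285 hairpins had a median identity of 95.7%, and none of their 44 was without a difference. These are descriptions of the listed hairpins, which in part come from both libraries.

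RefSeq names 264 goat miRNA genes in its ARS1.2 annotation, which may not be the build of the deposited coordinates and was used for names only. Of these, 10 carry a number of the set, and all 10 had reads in group 1. miR-2411, miR-2483 and miR-2332 among them had names with at least 20 reads. The others, miR-2290, miR-2318, miR-2320, miR-2331, miR-2335, miR-2404 and miR-2432, ranged from 1 to 12 reads over both libraries. In turn, 11 of the 14 hairpin names with at least 20 reads on an arm had no gene of that number there, miR-6119 and miR-6123 among them.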

How the data were processed

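Total RNA was turned into small RNA libraries with a TruSeq kit and run on a GAIIx, per the labels' protocols and the series text. The series text speaks of repeats in triplicate; 2 samples were used here, 1 per group, each placed by its label. The authors mapped reads to mammalian miRBase hairpins, a goat genome and ESTs, per the file headers and their column description. Which aligner, genome build and release of miRBase they used is not stated there. The read numbers deposited for each arm are expected counts, split where a read fits several entries. Copies and mismatches of the listed sequence are whole counts, per the file headers. The GC content of a hairpin is given in percent, per the file headers.

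Reads were summed per name and arm without species prefix, and entries without an arm were given 1 from both libraries together. Ratios are shares of named reads, positive over negative, after a prior of 0.5 reads was added, and their 95% intervals are Clopper-Pearson intervals of the positive share of both counts, rounded to whole reads. The named miRNAs were those with at least 100 reads, the 6 highest and 6 lowest ratios among those with at least 20, those with 0 in 1 library and at least 10 reads in the other, and the 6 with most reads outside group 1. Members named beyond these were chosen after their values were seen. Members, lists and rules were chosen with earlier results of these data known.

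TMM scaling (edgeR 4.0.16) and median of ratios (DESeq2 1.42.0) supplied factors only, in R 4.3.3, from the 592 names with at least 10 reads over both libraries; other steps used Python 3.11.15, pandas 2.3.3 and SciPy 1.17.1. That minimum of 10 was set after a first run over all names, to match earlier processing of these data; both are given in the closing section. These factors moved every log2 ratio up by 0.45 and 0.60. The calculation was tested on simulated counts.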

Additional observations from a re-analysis of the deposited data

Results flagged for a closer look

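Reads also lay under names of other species with numbers of the set, which the comparisons above leave out. miR-2355-5p under its human name had 47 CD49f-positive and 17 CD49f-negative reads, more than the 3 allowed by a count of 0. Its hairpin, chr2:94674019-94674105 on the minus strand, is the one that carries miR-2355-3p under the cattle name. No explanation was tested.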

How the results depend on the processing

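With 1 library per group no library could be left out. No paired analysis was possible because each group has 1 library, although both are numbered 1. Scaling decided the sign of the summed ratio: -0.54 as reported, -0.093 with TMM, 0.062 with median of ratios, and -0.26 with a total without the 10 most abundant names. Over all names in place of those with at least 10 reads, a setting added after seeing the data, TMM gave 0.28 and median of ratios 0.30. It was -0.44 for reads with no mismatch, -0.66 at known hairpins and -0.76 without miR-2478. miR-2478-3p turned to 0.25 with TMM, 0.41 with median of ratios, 0.091 without the 10 most abundant names, 0.019 by copies of its main sequence, and 0.63 and 0.64 with both scalings over all names, where miR-6119-5p turned to 0.21 and 0.22. With TMM or median of ratios, over either set of names, 1 member was called lower, miR-6123-5p, and 1 higher, miR-2440-3p; TMM moved the share of all 298 called lower to 13.4% and higher to 9.06%. Reads with no mismatch and the main sequence alone left 1 lower call, miR-2411-3p, since miR-6123-5p, at -1.87 and -2.23, fell under 100 reads. Known hairpins alone and a 4-fold rule also left 1, miR-6123-5p; at known hairpins miR-2411-3p, at -1.76, fell under 100 reads. By the deposited side label, added after seeing the data, 3 were lower and 1 higher, the additions being the 3p and 5p sides of miR-2478 (-1.23 and 4.12).

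The 123 names fell to 38 with at least 3 reads in a library, to 46 with at least 1 read without mismatch and to 53 with listed sequences of at least 18 bases. The group 1 share was 73.2% and 68.2% without miR-2478-3p, 50.4% and 57.2% with listed sequences of at least 18 bases, and 51.1% and 60.2% with enclosing entries. The share of reads without mismatch was 79.9% in the CD49f-positive library without miR-2478-3p, and 88.3% and 80.1% with at least 18 bases. Of 157 values of the 15 named members under an alternative, 125 stayed inside the reported interval. Depth limits the 107 names under 20 reads, for which no ratio can be ranked.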
